A study of Homo sapiens with 4 samples.

Results

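Amino acid transporters of the solute carrier families SLC1, SLC3, SLC7, SLC36, SLC38 and SLC43 were followed in 2 nasopharyngeal carcinoma cell lines. Genes were taken by symbol, as those whose name starts with SLC1A, SLC3A, SLC7A, SLC36A, SLC38A or SLC43A and a number. SLC7A11, the cystine carrier, was left out of the set and is given for comparison. The rule found 40 genes among 18323 with a probe set of 1 symbol, and 33 of them were among the 15194 genes tested after a filter on dim probe sets. SLC7A6OS, which lies next to SLC7A6 on the opposite strand, met the rule by its name. It is the counterpart of a yeast factor for import of RNA polymerase II into the nucleus and no transporter. SLC43A3 and the pseudogene SLC7A5P2 had only probe sets shared with other symbols and were not among the 40.

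The groups were HK1EBV cells with CAPE, HK1EBV cells with DMSO, HK1 cells with CAPE and HK1 cells with DMSO, each on 1 array. CAPE, caffeic acid phenethyl ester, is a component of propolis known to inhibit NF-κB signalling, and cells had 110 µM of it or 0.1% of the solvent DMSO for 24 h. The labels describe both lines as derived from nasopharyngeal carcinoma and grown in the same serum-containing medium. The name HK1EBV was read as HK1 with Epstein-Barr virus, and the labels do not say whether it is 1 clone.

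Values are on a log2 scale on which 1 unit is a 2-fold difference. The array medians were 2.23 for HK1EBV CAPE, 2.25 for HK1EBV DMSO, 2.27 for HK1 CAPE and 2.25 for HK1 DMSO, and the small number of arrays, 4, bounds how precise any value can be. Of the epithelial markers, KRT5 (keratin 5) stood at 9.49 to 10.3 and EPCAM at 7.63 to 8.10, KRT8 and KRT19 nearer the medians at 2.26 to 3.05, and KRT17 and TP63 had no probe set of 1 symbol. Of 7 fibroblast markers 5 were past the filter, COL1A1 at 3.42 to 3.64, COL3A1 at 2.21 to 2.45 and COL1A2 at 2.12 to 2.26 among them, while DCN (0.43 to 0.70) and LUM (0.45 to 0.51) were below it. Of 5 leukocyte markers measured 1 was past it, CD14 at 2.05 to 2.26, with PTPRC at 0.46 to 0.49, and of 4 endothelial markers 2 were, at 1.23 to 1.56. The mean over the fibroblast markers was 1.68 in HK1EBV CAPE and 1.68 in HK1EBV DMSO, and 1.76 in HK1 CAPE and 1.72 in HK1 DMSO. The part of these genes in the results was not tested. With no replicate of a group, a difference within 1 line has no replicate check. The limma fits, with 1 residual degree of freedom, took the 2 lines as replicates of the CAPE change, and likewise the 2 treatments for the difference between lines. The spread behind the p-values thus draws on how far the CAPE change differed between the lines, together with noise between arrays. No group had a second array, so these 2 parts cannot be told apart. The labels name no separate cultures, so the noise may be technical. The moderated SE of limma also draws on the spread of all genes, so it is not a gene's own spread between the lines. The CAPE change of SLC38A8 differed by -0.01 between the lines, and its SE was 0.11. For SLC1A4, with a difference of 0.43, the SE was 0.15. In cultured cells measured in bulk, fewer cells with an RNA and less RNA per cell cannot be told apart.

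Amino acids are charged or polar and cross membranes through carriers. SLC1 members carry glutamate, or exchange small neutral amino acids. SLC7 light chains work as pairs with an SLC3 heavy chain, which brings them to the cell surface, and the cationic members of SLC7 work alone. SLC38 members take up glutamine and other neutral amino acids with sodium, SLC36 members export amino acids from lysosomes or take them up with protons, and SLC43A1 and SLC43A2 pass large neutral amino acids along their gradient. When amino acids are short or proteins misfold, the factor ATF4 binds C/EBP-ATF response elements in several of these genes, and carcinoma cells are known for high levels of SLC7A5, SLC3A2 and SLC1A5.

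The promoters of 4 carriers are shown as examples with the core of such an element or of the antioxidant response element, which NRF2 binds. Other genes of the set hold matches too and are not shown. The sequences are from RefSeq, build GRCh38.p14, and run from 250 bases before a transcript start to 50 after it. Capitals mark matches to TGATGNAA (C/EBP-ATF) or TGACNNNGC (antioxidant), searched on both strands, and matches to the 2 motifs did not overlap. Of the 40 genes, 33 had a promoter in the table.
SLC1A4, chr2:64989149-64989448, plus strand: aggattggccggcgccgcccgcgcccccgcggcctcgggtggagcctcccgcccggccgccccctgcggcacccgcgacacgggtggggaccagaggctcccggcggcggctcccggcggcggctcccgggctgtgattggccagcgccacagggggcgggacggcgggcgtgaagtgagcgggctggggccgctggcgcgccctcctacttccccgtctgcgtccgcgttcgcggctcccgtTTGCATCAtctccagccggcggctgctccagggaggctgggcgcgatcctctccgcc
SLC1A5, chr19:46784765-46785064, minus strand: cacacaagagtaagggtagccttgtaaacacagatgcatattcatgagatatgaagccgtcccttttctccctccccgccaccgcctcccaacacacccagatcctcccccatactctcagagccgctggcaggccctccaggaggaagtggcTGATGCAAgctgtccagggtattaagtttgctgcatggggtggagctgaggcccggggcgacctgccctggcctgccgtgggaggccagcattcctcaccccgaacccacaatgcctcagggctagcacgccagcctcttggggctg
SLC3A2, chr11:62881449-62881748, plus strand: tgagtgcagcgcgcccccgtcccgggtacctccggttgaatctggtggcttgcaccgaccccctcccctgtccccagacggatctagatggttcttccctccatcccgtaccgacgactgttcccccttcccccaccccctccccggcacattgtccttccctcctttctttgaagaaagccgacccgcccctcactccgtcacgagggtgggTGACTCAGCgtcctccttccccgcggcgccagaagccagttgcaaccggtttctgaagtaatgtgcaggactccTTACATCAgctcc
SLC7A5, chr16:87869458-87869757, minus strand: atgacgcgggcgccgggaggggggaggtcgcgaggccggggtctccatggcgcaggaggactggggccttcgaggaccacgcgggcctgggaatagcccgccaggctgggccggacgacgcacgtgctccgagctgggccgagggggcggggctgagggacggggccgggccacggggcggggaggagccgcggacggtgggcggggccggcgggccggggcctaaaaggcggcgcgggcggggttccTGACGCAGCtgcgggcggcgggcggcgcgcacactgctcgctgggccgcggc

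TGATGNAA was found in promoters of 6 of these 33 genes, or 18.2%, against 4.46% of 27305 genes with a promoter in the table. The 6 were SLC1A3, SLC1A4, SLC1A5, SLC3A2, SLC38A1 and SLC7A1. In SLC1A4 the match TTGCATCA begins 7 bases before one of its 2 listed starts. In SLC1A5 the match TGATGCAA begins 97 bases before one of 3, which lies downstream of another of them. TGACNNNGC was found for 7 of 33, or 21.2%, against 16.1% of all genes. The 7 were SLC1A3, SLC1A5, SLC3A2, SLC7A1, SLC7A5, SLC7A6 and SLC7A7. In SLC1A5 this match, GCGAGGTCA, begins 111 bases before a listed start whose sequence is not shown. SLC3A2 has TGACTCAGC 37 bases before the start shown and TTACATCA 37 bases after it. Genes with several listed starts have more sequence searched, and a match is a description of letters, not of binding.

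The first question was how transporter RNAs differed between CAPE and DMSO. None (0) of the 33 genes passed in the fit over both lines (limma with Benjamini-Hochberg adjustment over all genes tested), where 0.00658% of all genes did, that is 1 gene. At an unadjusted p under 0.05 there were 9 of 33, against 19.5% of all genes. The fit held 57 genes whose residual was 0 within rounding, which affects the variance estimate shared by all genes. Without them, 6 of 33 passed, 5 higher and 1 lower, against 8.21% of all genes, 4.07% higher and 4.14% lower. Those higher were SLC1A4, SLC7A8, SLC38A6, SLC38A12 (assigned no transport role here) and SLC7A6OS (no transporter), and SLC7A5 was lower. This count depends on that choice, which was made with earlier results known. The CAPE values of single transporter genes below are therefore given as differences, some with adjusted p, without a call. For other lists, the genes that passed are given with and without the genes of zero residual.

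The median CAPE change of the 33 genes was 0.03 in HK1EBV and 0.02 in HK1, beside -0.00317 and 0.02 over all genes tested. Over the 19 at or above the 50th percentile of all probe sets it was 0.28 and 0.19. No median over all genes of that level was taken to set beside these. In HK1EBV 5 of 33, SLC38A12 and SLC7A6OS among them, were at least 1.5-fold higher and 0 that much lower, against 3.90% and 3.63% of all genes. In HK1 2 were at least 1.5-fold higher and 1 lower, against 3.38% and 3.79%. Only SLC1A4 in HK1EBV passed 2-fold, where 0.691% of all genes were that much higher and 0.533% lower, and in HK1 0 of 33 did, where 0.671% were higher and 0.684% lower.

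**Figure D1:**
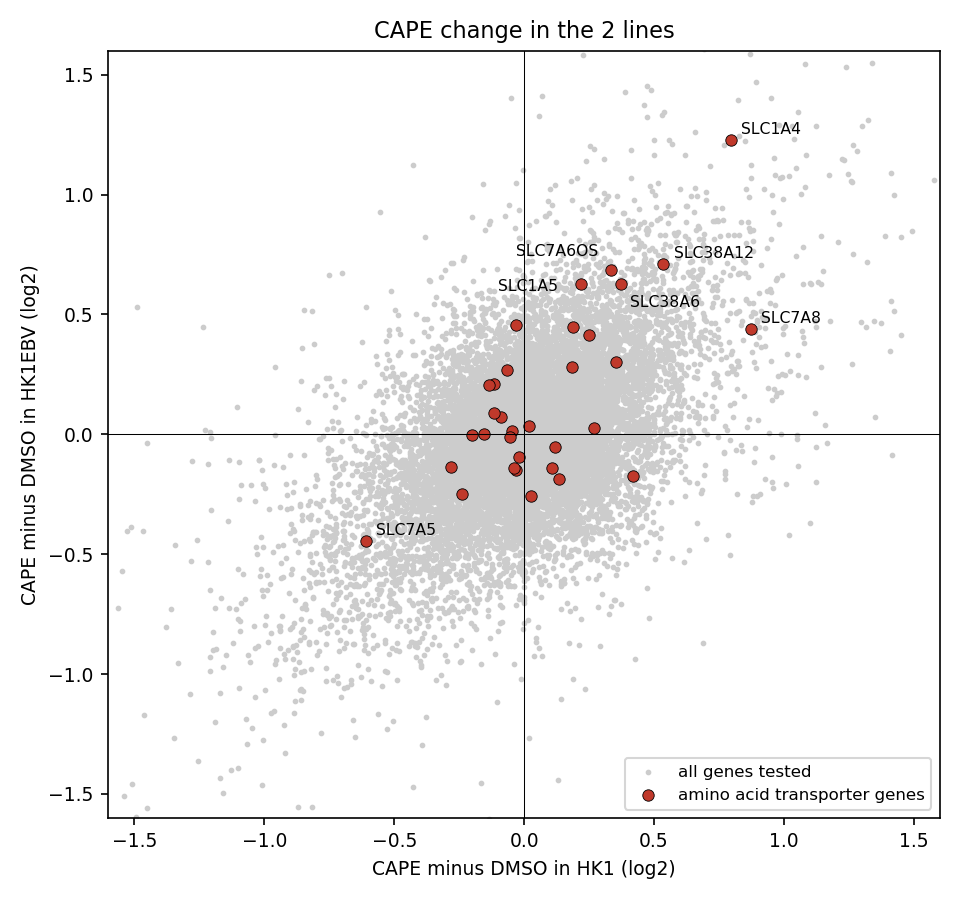
CAPE minus DMSO (log2) in HK1 on the horizontal axis and in HK1EBV on the vertical axis, for all genes tested (grey) and the 33 genes of the set, SLC7A6OS included (red), with names at changes of 0.5 or more. SLC1A4 lies highest of the 33 on the vertical axis, at 1.23 in HK1EBV, while in HK1 SLC7A8 at 0.87 exceeds SLC1A4 at 0.79. SLC7A5 is the lowest of them in both lines, at -0.44 in HK1EBV and -0.61 in HK1. Most others sit near 0, and 51 genes lie outside the axes.

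Of the small neutral exchangers, SLC1A4 (ASCT1, which exchanges alanine, serine, cysteine and threonine) had 4.83 in HK1EBV CAPE against 3.60 in HK1EBV DMSO. In HK1 it had 4.85 with CAPE against 4.06 with DMSO. Both CAPE arrays were thus above both DMSO arrays, and nearly level with each other. How many of all genes tested separate in this way was not counted, here or for the genes below. The difference was 1.23 in HK1EBV and 0.79 in HK1, with a mean of 1.01 ± 0.15 (limma's moderated SE over n = 2 lines), that is 2.02-fold. The adjusted p of limma was 0.0798 with all genes and 0.00264 without the genes of zero residual. SLC1A5 (ASCT2, the main glutamine exchanger of many tumour cells) had 7.37 with CAPE against 6.75 with DMSO in HK1EBV, and 6.88 against 6.66 in HK1. Its mean difference was 0.42 ± 0.14 (limma adjusted p = 0.208). A dimmer probe set of SLC1A5 gave 0.19 in HK1EBV and 0.51 in HK1, so both probe sets were higher with CAPE while the line with the larger difference was not the same.

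**Figure D2:**
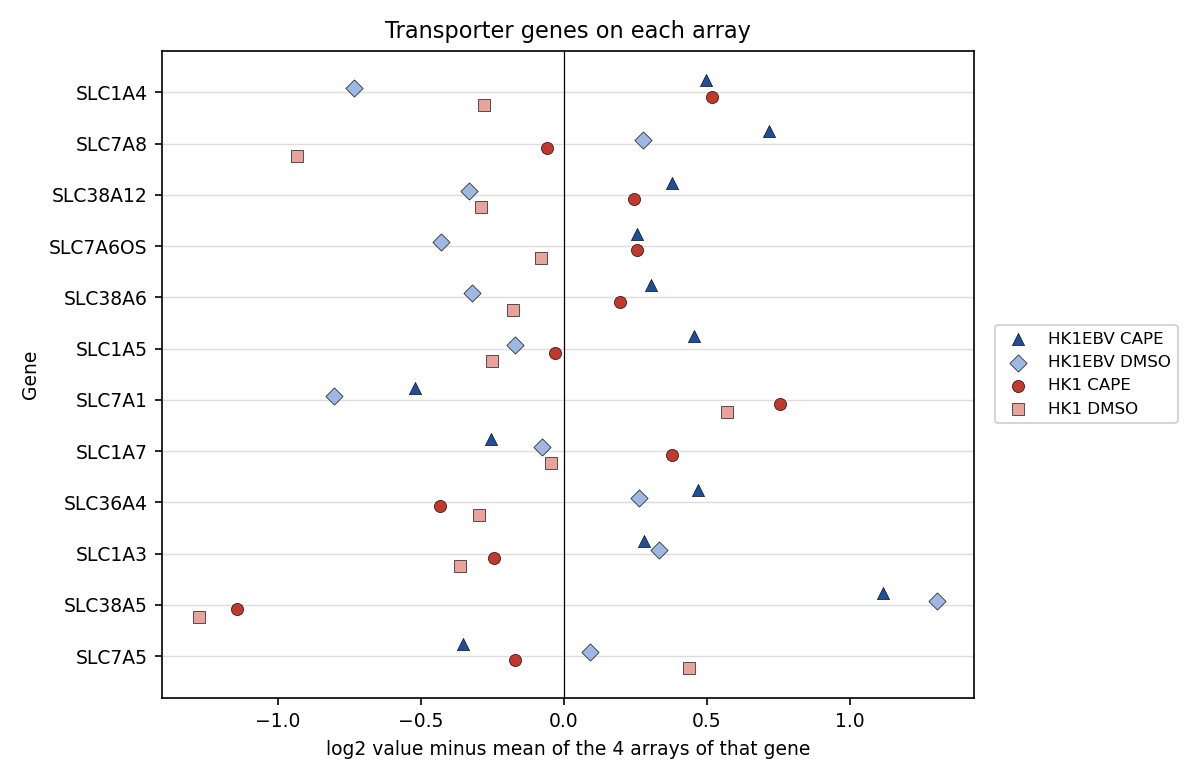
Value on each array minus the gene's mean over the 4 arrays (log2), for the 12 genes of the set with a difference of 0.5 or more with CAPE in a line or between the lines in a treatment. Symbols stand for the 4 arrays. For SLC1A4 both CAPE arrays lie to the right of both DMSO arrays, while SLC38A5 and SLC7A1 separate by line.

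Of the heavy chains, SLC3A2 (4F2hc or CD98, the partner of SLC7A5, SLC7A6, SLC7A7, SLC7A8, SLC7A10 and SLC7A11) stood at 8.01 with CAPE against 7.94 with DMSO in HK1EBV, and at 8.20 against 8.29 in HK1. Its differences of 0.07 and -0.09 had opposite signs, with a mean of -0.01 ± 0.11 (moderated SE, n = 2). SLC3A1 (rBAT, the partner of SLC7A9 in kidney and gut) was dim, at 1.03 to 1.18, with the same value on 3 arrays.

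The light chains of SLC3A2 had CAPE differences of both signs. SLC7A5 (LAT1, which brings in leucine and other large neutral amino acids) had 8.98 with CAPE against 9.42 with DMSO in HK1EBV, and 9.16 against 9.77 in HK1. Both CAPE arrays were below both DMSO arrays. The mean difference was -0.53 ± 0.12 (moderated SE, n = 2), a 1.44-fold lower value with CAPE, at limma adjusted p = 0.115, or 0.0335 without the genes of zero residual.

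SLC7A8 (LAT2, a light chain for neutral amino acids of many sizes) had 6.94 with CAPE against 6.50 with DMSO in HK1EBV, and 6.16 against 5.29 in HK1. CAPE was higher within each line, by 0.44 and 0.87, while the HK1 CAPE array stayed below both HK1EBV arrays. The mean difference was 0.66 ± 0.15, or 1.58-fold (limma adjusted p = 0.117, or 0.0206 without the genes of zero residual). The CAPE change of SLC7A8 thus exceeded that of SLC7A5 by 0.88 in HK1EBV and by 1.48 in HK1, and the difference between the 2 genes was not tested.

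SLC7A6 (y+LAT2, an exchanger of arginine for glutamine) differed by 0.01 in HK1EBV and -0.05 in HK1, and SLC7A10 (asc-1, for small neutral amino acids) by 0.03 and 0.27. SLC7A11, outside the set, had 6.86 with CAPE against 6.16 with DMSO in HK1EBV and 7.67 against 7.44 in HK1, a mean difference of 0.46 ± 0.15 (limma adjusted p = 0.198). SLC7A9 (b0,+AT), the light chain paired with SLC3A1, differed by -0.26 and 0.03 at 1.14 to 1.39, and SLC7A7 and SLC7A13 were below the filter.

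**Figure D3:**
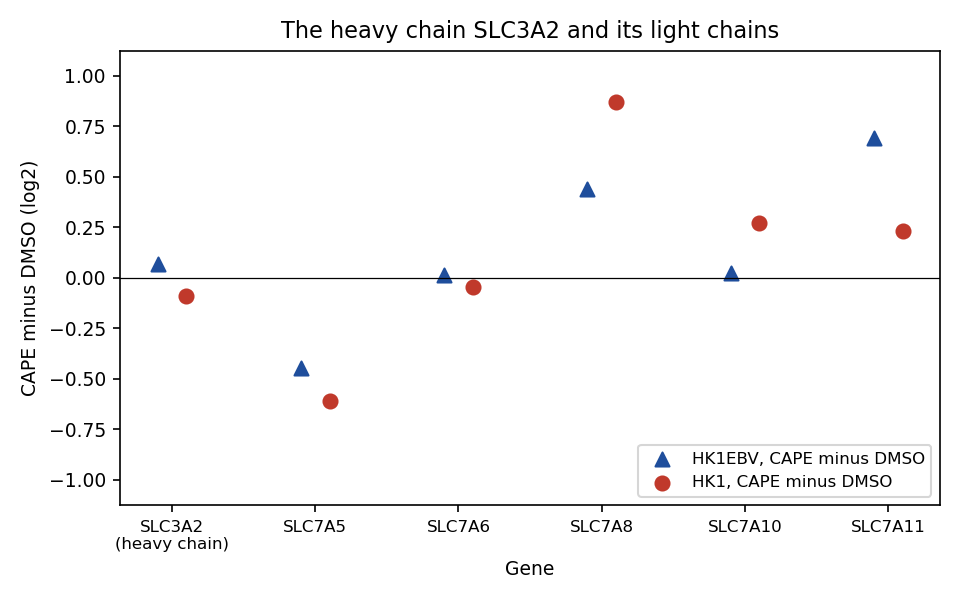
CAPE minus DMSO (log2) in HK1EBV (blue triangles) and HK1 (red circles) for the heavy chain gene SLC3A2 and genes of its light chains, 1 difference between 2 arrays per point. SLC3A2 and SLC7A6 lie near 0, SLC7A5 below 0 in both lines, and SLC7A8 and SLC7A11 above 0 in both.

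Among the sodium-coupled carriers, SLC38A6 (SNAT6) had 4.48 with CAPE against 3.85 with DMSO in HK1EBV, and 4.37 against 3.99 in HK1. Both CAPE arrays were above both DMSO arrays, with a mean difference of 0.50 ± 0.12 (limma adjusted p = 0.132, or 0.0450 without the genes of zero residual). SLC38A12, listed in RefSeq also as TMEM104, met the rule by its symbol and was assigned no transport role here. This gene had 4.47 against 3.76 in HK1EBV and 4.34 against 3.80 in HK1, again without overlap. Its mean difference was 0.62 ± 0.12 (limma adjusted p = 0.0964, or 0.0172 without those genes).

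SLC38A2 (SNAT2, the system A carrier that cells raise when amino acids are short) was 9.28 with CAPE against 8.87 with DMSO in HK1EBV, and 9.37 against 9.12 in HK1. Both CAPE arrays were higher, by a mean of 0.33 ± 0.12 (limma adjusted p = 0.218). SLC38A9, the lysosomal carrier that signals arginine to the growth kinase complex mTORC1, differed by 0.45 in HK1EBV and 0.19 in HK1. SLC38A1 (SNAT1, a glutamine carrier) differed by 0.27 and -0.06, SLC38A10 by 0.09 and -0.11, and SLC38A7 (SNAT7, which releases glutamine from lysosomes) by -0.10 and -0.02. The dim SLC38A3, SLC38A4 and SLC38A8 differed on average by 0.21, -0.03 and -0.24, at values of 0.91 to 1.67 across the arrays, where a fall may not show.

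The cationic carrier SLC7A1 (CAT1, for arginine and lysine) had 6.71 with CAPE against 6.43 with DMSO in HK1EBV, and 7.98 against 7.80 in HK1. It was higher with CAPE within each line, by a mean of 0.23 ± 0.11 (limma adjusted p = 0.342). SLC7A3 (CAT3) and SLC7A4, at 0.98 to 1.85, differed by a mean of -0.21 and -0.09. Of the proton-coupled carriers, SLC36A1 (PAT1, of lysosomes) was higher with CAPE by 0.30 in HK1EBV and 0.36 in HK1 (limma adjusted p = 0.205). SLC36A4 (PAT4) differed by 0.21 and -0.14, and the dim SLC36A2 and SLC36A3 by a mean of 0.03 and -0.02. SLC43A1 and SLC43A2 (LAT3 and LAT4, for large neutral amino acids) differed by a mean of -0.10 and -0.09.

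Of the glutamate and aspartate carriers, SLC1A3 (EAAT1) differed by -0.05 in HK1EBV and 0.12 in HK1. SLC1A7 (EAAT5, known from the retina) had 0.87 with CAPE against 1.04 with DMSO in HK1EBV, and in HK1 its CAPE array lay 0.42 above 1.08 with DMSO. Its differences of -0.18 and 0.42 thus had opposite signs, at values near the filter. SLC1A6 (EAAT4) differed by 0.21 and -0.11 at 0.92 to 1.13. SLC7A6OS, which is no carrier, had 4.83 with CAPE against 4.15 with DMSO in HK1EBV and 4.83 against 4.50 in HK1. Its mean difference was 0.51 ± 0.13 (limma adjusted p = 0.148, or 0.0489 without the genes of zero residual), beside -0.02 for its neighbour SLC7A6.

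The 7 genes below the filter were SLC1A1, SLC1A2, SLC38A11, SLC7A13, SLC7A14, SLC7A2 and SLC7A7. They lay between 0.32 and 1.10 on the arrays, and 3 of them had one value on more than 1 array. Their CAPE differences within a line were at most 0.26 in size. Differences of 14 further genes, which were tested with a mean under the 50th percentile of all probe sets, were at most 0.24 in size on average over both lines.

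Of the 19 genes at or above that percentile, 11 were higher with CAPE in both lines and 2, SLC7A5 and SLC38A7, lower in both. Among all 10733 genes of that level, 34.8% were higher in both and 32.4% lower in both. Over all 33 genes the counts were 12 higher and 8 lower in both lines, against 32.1% and 29.5% of all genes tested. Of the 8, SLC38A4 and SLC43A1 turned sign in HK1EBV under another scaling. The CAPE change differed between the lines by a median of 0.20 in size over the 33 genes, against 0.19 over all genes, and these differences between lines have no residual degree of freedom and no test.

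The next question was how the lines differed. Of the 33 genes 3 passed in the fit over both treatments, SLC38A5 and SLC7A8 higher in HK1EBV and SLC7A1 lower, where 2.90% of all genes passed, 1.32% higher and 1.58% lower by the same limma test. Without the genes of zero residual, SLC1A3 and SLC36A4 passed too, which made 5 of 33, 4 higher and 1 lower, against 11.6% of all genes, 6.26% higher and 5.34% lower. Without the filter on dim probe sets, or without treatment in the model, 0 of them passed, and 0 of all genes.

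SLC38A5 (SNAT5, a system N carrier of glutamine, histidine and serine) had 3.70 in HK1EBV CAPE against 1.44 in HK1 CAPE, and 3.89 in HK1EBV DMSO against 1.31 in HK1 DMSO. Both HK1EBV arrays were above the array medians and both HK1 arrays below them. The difference was 2.42 ± 0.13 (moderated SE, n = 2 treatments), or 5.35-fold on this scale (limma adjusted p = 0.0164, and 0.116 without the filter). Both HK1 values lie in the dim range, where differences are compressed, so the fold may be understated. With CAPE it differed little within a line, by -0.19 in HK1EBV and 0.13 in HK1. The gene is on the X chromosome, where the median line difference of 509 genes tested was 0.05.

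SLC7A8, described above for CAPE, was higher in HK1EBV by 0.77 with CAPE and by 1.21 with DMSO. The mean was 0.99 ± 0.15, or 1.99-fold (limma adjusted p = 0.0486, and 0.130 without the filter). It lies on chromosome 14, where the median line difference of 490 genes was -0.04.

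SLC7A1 was lower in HK1EBV, at 6.71 against 7.98 in HK1 with CAPE and at 6.43 against 7.80 with DMSO. All HK1EBV values were below all HK1 values, by a mean of -1.33 ± 0.11, or 2.51-fold (limma adjusted p = 0.0258, and 0.119 without the filter). The gene lies on chromosome 13, where 199 of 253 genes tested had a lower mean in HK1EBV and the median line difference was -0.42. SLC7A1 was among 5 genes there with a difference of its size or lower, and the part of the chromosome in its difference was not tested.

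SLC1A3, the glutamate carrier, had 4.33 in HK1EBV CAPE against 3.80 in HK1 CAPE, and 4.38 in HK1EBV DMSO against 3.68 in HK1 DMSO. Its difference of 0.61 ± 0.12 gave limma adjusted p = 0.0674, or 0.0131 without the genes of zero residual. SLC36A4, a carrier for proline and tryptophan, had 2.14 against 1.24 with CAPE and 1.94 against 1.38 with DMSO. Its difference of 0.73 ± 0.13 gave 0.0648, or 0.00715 without those genes. For both genes the HK1EBV arrays lay above the HK1 arrays.

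**Figure D4:**
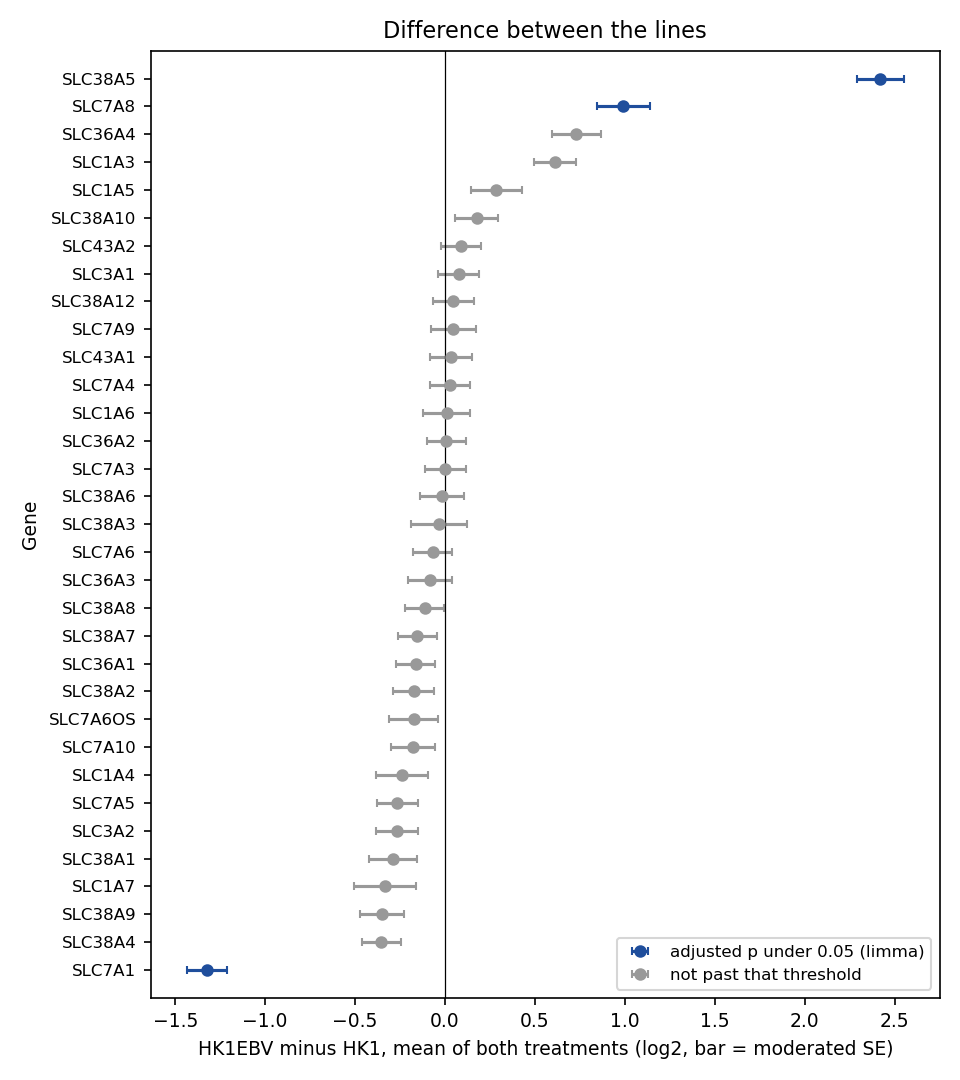
HK1EBV minus HK1 averaged over both treatments (log2, bars are the moderated SE of limma, n = 2 treatments) for the 33 genes tested. SLC38A5 at 2.42, SLC7A8 at 0.99 and SLC7A1 at -1.33 (blue) had an adjusted p under 0.05.

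Across the 33 genes the median line difference was -0.03, against 0.00 over all genes tested. With CAPE 1 gene was at least 2-fold higher in HK1EBV and 1 at least 2-fold lower, against 0.928% and 1.13% of all genes. With DMSO the counts were 2 and 1, against 0.895% and 0.974%. Of the 19 brighter genes, 12 were lower in HK1EBV with CAPE, against 49.2% of all genes of that level, and 14 with DMSO, against 46.7%. SLC1A4 was level between the lines with CAPE, at -0.02, and stood at -0.46 with DMSO (HK1EBV minus HK1). SLC38A1 stood at -0.12 with CAPE and -0.45 with DMSO, and SLC38A9 at -0.22 and -0.48. SLC7A11, outside the set, stood at -0.82 and -1.28 (limma adjusted p = 0.0482 over both treatments). The line differences and the CAPE changes of these genes rest on the same 4 arrays.

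Known regulators of these genes were followed on the same arrays. ATF4, the factor of the amino acid response, had 7.75 with CAPE against 6.95 with DMSO in HK1EBV, and 7.75 against 7.66 in HK1. HK1EBV DMSO was thus the lowest and the other arrays lay close together. CEBPB, a partner of ATF4, was higher with CAPE by 0.88 in HK1EBV and 0.45 in HK1, and DDIT3 by 2.40 and 1.39. MYC, known to raise SLC7A5 and SLC1A5, differed by -0.42 and -0.53, and NFE2L2, which encodes NRF2, by -0.30 and -0.43. ATF5 differed by -0.39 and -0.28, and EIF2AK4, the kinase that senses uncharged tRNA, by 0.12 and -0.38. None (0) of these 7 passed for CAPE in the limma fit, where 0.00658% of all genes did. Without the genes of zero residual DDIT3 (adjusted p = 0.000640), CEBPB (0.0198) and MYC (0.0492) passed, 2 higher and 1 lower, against 4.07% and 4.14% of all genes in limma. The part of any of them in the transporter values was not tested.

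Amino acids that enter through these carriers are sensed at the lysosome by mTORC1. Of 35 genes of that sensing listed, 30 were tested, and 0 passed for CAPE, or 3 higher and 1 lower without the genes of zero residual, against 4.07% and 4.14% of all genes. SESN2, the leucine sensor that holds mTORC1 back, was higher with CAPE by 0.89 in HK1EBV and 0.73 in HK1. RRAGC, one of the Rag GTPases that bring mTORC1 to the lysosome, was higher by 0.67 and 0.83, and FNIP1, a partner of folliculin, by 0.65 and 0.46. SEH1L, a subunit of the GATOR2 complex, differed by -0.94 and -0.89. The list's median CAPE change was 0.01 in HK1EBV and -0.02 in HK1, beside -0.00317 and 0.02 over all genes tested.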

How the data were processed

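RNA of 4 samples of cultured cells, 1 a group, was measured on single-colour Affymetrix arrays. The authors deposited log2 values made with RMA, per the submitters' processing notes. The log base is taken from that method, and any centring is not given in the sources used here. RMA normalizes between arrays, so values show change relative to other genes, though the deposited medians still differ slightly, and it compresses differences of dim genes. Of 25800 probe sets, 18612 carried a single gene symbol, 954 carried several and 6234 carried none. The brightest probe set of 1 symbol stood for a gene, and 18583 were matched to RefSeq (GRCh38.p14). A gene entered the tests with a mean of at least 0.997, the 25th percentile.

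The limma fit (3.58.1, R 4.3.3) had terms for line and for treatment, Benjamini-Hochberg adjustment over all genes tested and a threshold of 0.05. The code was also run on simulated data with one spread for all genes and no difference between lines. Those data were not made with genes of zero residual, so they cannot show what such genes do to the fit. All 40 genes are described, in full those tested with a difference of at least 0.5 between arrays, and other lists by up to 4 genes of largest mean CAPE change. Members, lists, motifs and alternatives were chosen with earlier results of these data known. Alternatives were other filters, scalings, probe set rules, variance priors and thresholds, no block, and no genes of zero residual.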

Additional observations from a re-analysis of the deposited data

Results flagged for a closer look

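The CAPE change had opposite signs in the lines for 12 of the 33 genes of the set tested. Counted with changes of 0 in a line, 13 of the 33 were without one sign in both lines, against 5830 of 15194 genes tested. None of these differences could be tested, since each rests on 4 single arrays. The difference in CAPE change, HK1EBV minus HK1, was -0.60 for SLC1A7, 0.49 for SLC38A3, 0.34 for SLC36A4, 0.33 for SLC38A1, 0.32 for SLC1A6 and -0.32 for SLC38A5. It was -0.28 for SLC7A9, -0.25 for SLC36A3, 0.20 for SLC38A10, -0.17 for SLC1A3, 0.16 for SLC3A2 and 0.0604 for SLC7A6. The median size of this difference over all genes tested was 0.19. SLC43A3, a nucleobase carrier, has a probe set shared with PRG2 that was outside every comparison, and its values with CAPE were above those with DMSO in both lines, by 0.18 in HK1EBV and 0.15 in HK1, a mean of 0.16.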

How the results depend on the processing

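Of the 33 genes, the number that passed for CAPE was 0, and 0 again without the filter on dim probe sets, with the mean of probe sets, with a trend in the variance prior and with no block. It was 3 with the filter at the 50th percentile (894 of all genes), 4 with arrays shifted to one median (1006), 2 with quantile normalization (755), 1 with a robust prior (379) and 6 without the genes of zero residual (1243). At an adjusted p under 0.1 it was 2, and all genes were not counted at that threshold. All genes numbered 1 in the fit as reported, 0 with no filter, 1 with the mean of probe sets, 7 with a trend and 0 with no block. For the lines it was 3 (440 of all genes), and 3 again with the mean of probe sets (489) and with a trend (440). It was 4 with the filter at the 50th percentile (1296), 0 with no filter (0) and 0 with no block (0). The number was 5 each with arrays shifted to one median (1526), quantile normalization (1321), a robust prior (959) or no genes of zero residual (1756). It was also 5 at an adjusted p under 0.1, again with no count over all genes. The adjusted p of SLC1A4 for CAPE lay between 0.00264 and 0.437 with a change of 1.01 throughout, and that of SLC38A5 for the lines between 7.51e-06 and 0.116. At 1.5-fold in place of 2-fold, 5 genes differed with CAPE in HK1EBV in place of 1, and 3 in HK1 in place of 0. The median CAPE change was 0.28 in HK1EBV, against 0.03, and 0.19 in HK1, against 0.02, over the 19 genes left by the 50th percentile filter. That filter drops dim genes, whose CAPE changes averaged over both lines were at most 0.24 in size. Of the 19 genes 11 were higher and 2 lower in both lines, against 12 and 8 of the 33. The line difference of SLC7A3 was -0.000521 after quantile normalization, against 0.00138, and no other mean CAPE change or line difference of the 33 genes turned sign. Chosen after seeing the data, the signs of the CAPE change within each line were also read under both other scalings. In HK1EBV SLC38A4 came to 0.00522 with arrays shifted to one median, against -0.0126, and SLC43A1 to 0.0161 with that shift and 0.00490 with quantile normalization, against -0.00179. Genes lower in both lines then numbered 6 with the shift and 7 with quantile normalization, against 8, and those higher in both stayed at 12. No array could be left out, as that would leave no residual degree of freedom. CAPE and DMSO were paired within each line by the line term, and the values with no block are those of the unpaired fit. The labels number no replicates, so there was no other pairing. Values near 1 lie at the low end of the scale, where a fall may not show.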

Other observations

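Amino acid carriers of other families were also read. Of 30 such genes listed, 25 were tested, and 0 passed for CAPE in the limma fit, where 0.00658% of all genes did. Without the genes of zero residual 3 passed higher and 2 lower, against 4.07% and 4.14% of all genes, and 9 had an unadjusted p under 0.05 in the fit with all genes, against 19.5%. SLC25A15, the mitochondrial ornithine carrier, had 2.25 with CAPE against 3.74 with DMSO in HK1EBV and 3.10 against 4.26 in HK1, a mean difference of -1.33 ± 0.13 (moderated SE of limma, n = 2; adjusted p = 0.0672). SLC25A13, the mitochondrial aspartate and glutamate carrier citrin, had 4.67 against 5.90 in HK1EBV and 5.28 against 5.81 in HK1. SLC66A1, which exports cationic amino acids from lysosomes, was higher with CAPE by 0.74 in HK1EBV and 0.55 in HK1, and SLC6A9, the glycine carrier GLYT1, by 0.77 and 0.44. The median CAPE change of this list was 0.08 in HK1EBV and 0.01 in HK1, beside -0.00317 and 0.02 over all genes tested.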
